A study of Homo sapiens and Mus musculus with 21 samples.

Results

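The 9 genes described here are IFITM1, IFITM2, IFITM3, IFI6, IFI27, ISG15, IFIT1, IFIT3 and IRF9, interferon-induced genes of the human tumour cells, out of 58336 human identifiers measured. They were listed by name and found by joining the Ensembl identifiers of the human table to GENCODE 29 symbols. All 9 were among the 22981 genes tested, which means a level of 1 TPM or more in 3 or more of the 18 libraries. TPM, the unit of the deposited values, is a level per transcript length, relative to all human transcripts of the same library.

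The tumours were xenografts of SW620 and SW480, established human colorectal adenocarcinoma lines, grown for 28 days in the caecum wall of NSG mice, an immunodeficient strain that lacks T, B and natural killer cells. The SW620 groups were dnLEF1 (lentiviral dominant-negative LEF1, a form that opposes transcription by beta-catenin and the TCF and LEF factors), LRP6KO (targeted by CRISPR at LRP6, a co-receptor of the Wnt ligands, by transfection, then selected with puromycin and sorted for low LRP6 protein), Cas9 (the mock of that transfection) and Mock (mock lentivirus). The SW480 groups were dnLEF1 and Mock, made in the same way. Each of the 6 groups had 3 libraries, called biological triplicates by the submitters. No label ties a library to an animal, so p-values measure the spread between these samples. Both lines derive from the same patient, SW480 from the primary tumour and SW620 from a lymph node metastasis. The labels do not say whether the dnLEF1 and LRP6KO cells are clones or pools.

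Type I interferons act through the receptor chains IFNAR1 and IFNAR2 and the kinases JAK1 and TYK2. IRF9 is a subunit of ISGF3, the factor that this signal activates and that binds interferon-stimulated response elements (ISREs) in the promoters of its target genes. The IFITM proteins are small membrane proteins that hinder the entry of many enveloped viruses, and IFITM genes have also been described as responsive to Wnt signalling in intestinal tumours. Many interferon-induced genes keep a basal level in tumour cells with no added interferon.

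The promoters of these genes differ in their match to the ISRE, and some are shown here, with ISRE matches or, for IRF9, without. RefSeq promoter entries (GRCh38.p14, 250 bases before to 50 after the start site) were matched by symbol for 8 of the 9 members, and IFITM2 had no entry. The letters GAAANNGAAA, read on both strands, were found in 7 of the 8, each time with 2 or more matches, against 3.57% of all 35116 promoter entries with a match and 0.259% with 2 or more. The windows run from 150 bases before to 10 after the start site, 5′ to 3′ in the direction of the gene, and capitals mark the matches. They lie at chr11:313890-314049 (plus strand) for IFITM1, chr11:320851-321010 (minus) for IFITM3, chr1:1013347-1013506 (plus) for ISG15, chr10:89392473-89392632 (plus) for IFIT1 and chr14:24161115-24161274 (plus) for IRF9.
IFITM1: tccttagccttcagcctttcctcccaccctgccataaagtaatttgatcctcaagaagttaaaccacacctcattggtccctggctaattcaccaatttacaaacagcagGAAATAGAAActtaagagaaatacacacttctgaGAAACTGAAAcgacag
IFITM3: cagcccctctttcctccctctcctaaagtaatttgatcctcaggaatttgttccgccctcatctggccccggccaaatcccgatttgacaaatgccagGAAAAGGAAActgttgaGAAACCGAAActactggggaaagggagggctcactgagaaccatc
ISG15: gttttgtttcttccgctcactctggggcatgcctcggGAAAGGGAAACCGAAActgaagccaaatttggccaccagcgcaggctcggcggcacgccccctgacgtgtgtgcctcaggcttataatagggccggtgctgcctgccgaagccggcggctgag
IFIT1: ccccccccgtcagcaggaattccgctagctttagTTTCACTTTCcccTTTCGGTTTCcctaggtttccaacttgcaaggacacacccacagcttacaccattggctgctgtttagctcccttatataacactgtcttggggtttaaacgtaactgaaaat
IRF9: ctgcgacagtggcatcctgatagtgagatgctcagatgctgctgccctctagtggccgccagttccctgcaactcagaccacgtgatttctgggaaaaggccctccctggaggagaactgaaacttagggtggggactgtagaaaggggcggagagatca
In ISG15 the matches overlap, and in IFIT1 both lie on the opposite strand. IRF9 had no ISRE match in its window and 1 match to the letters TTCNNNGAA of the GAS element, starting 63 bases before the start site. IFITM1 and IFI27 also had a GAS match, which in each overlaps an ISRE match, and 7.66% of all promoter entries had one. The letters CTTTGAT of the TCF and LEF element were in none of the 8 promoters, against 2.62% of all entries. A match is a run of letters only, and neither a match nor its absence shows whether a factor binds.

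**Figure D1:**
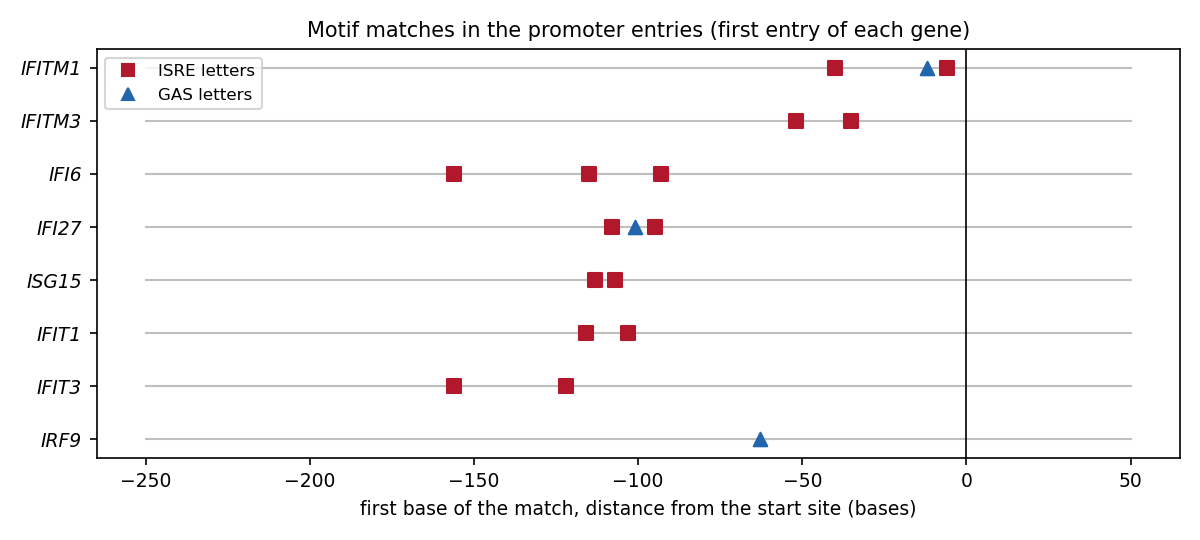
Matches to the ISRE letters (squares) and the GAS letters (triangles) along the promoter entries of 8 members, 1 row per gene; the x axis is the distance in bases of the first letter of the match from the start site at 0. In 7 of the 8 rows there are 2 or more squares, and IRF9 has a triangle alone.

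The 3 IFITM genes lie beside each other on chromosome 11 and share much of their sequence, which bears on how reads are divided between them. In the GENCODE 29 annotation of GRCh38, IFITM2 (ENSG00000185201.16) spans chr11:307631-315272 on the plus strand. The whole of IFITM1 (ENSG00000185885.15, chr11:313506-315272, plus strand) lies inside that gene model, and IFITM3 (ENSG00000142089.15, chr11:319669-327537) lies on the minus strand beyond it. Aligned coding sequences were identical at 93.9% of bases between IFITM2 and IFITM3, 87.5% between IFITM1 and IFITM3 and 85.4% between IFITM1 and IFITM2. The most alike stretch, 90 bases in the later part of each coding sequence, is printed to show how little separates the genes there, with the base that differs from IFITM3 in capitals. It lies at chr11:314922-315011 (plus) in IFITM1, chr11:309013-309102 (plus) in IFITM2 and chr11:319901-319990 (minus) in IFITM3.
IFITM1: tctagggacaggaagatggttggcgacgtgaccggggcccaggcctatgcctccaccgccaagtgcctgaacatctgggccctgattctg
IFITM2: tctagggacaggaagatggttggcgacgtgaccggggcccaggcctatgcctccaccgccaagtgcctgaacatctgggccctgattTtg
IFITM3: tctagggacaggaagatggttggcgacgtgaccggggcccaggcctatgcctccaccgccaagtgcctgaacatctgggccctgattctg
Of all 50-base stretches of the main transcript, 42.3% were found in another gene for IFITM1, 15.8% for IFITM2 and 20.3% for IFITM3. A read from such a stretch cannot be placed in 1 gene by its letters, so each IFITM value depends on how the quantifier shared such reads out, and the sum of the 3 genes is given beside them. For the same reason IRF9 values are uncertain, since the whole IRF9 transcript is contained in the gene model AL136295.5, which was listed at 0.74 to 4.15 TPM. IFI6, IFI27 and ISG15 had no shared stretch.

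**Figure D2:**
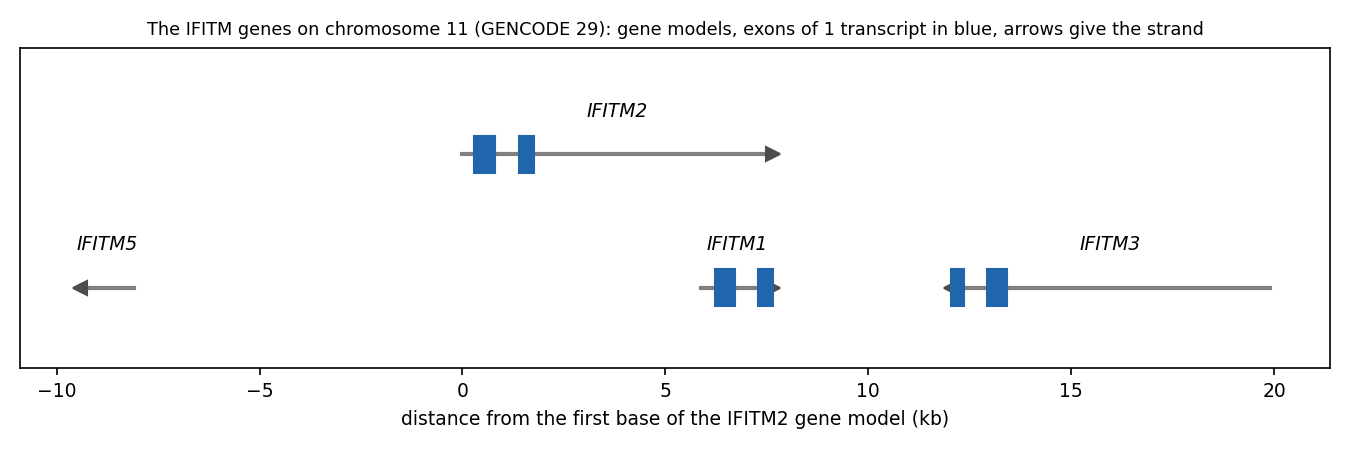
Map of the IFITM genes, with the x axis in kb from the first base of the IFITM2 gene model; grey lines are gene models, blue boxes the exons of 1 transcript per gene for the 3 members, and arrowheads the strand. The IFITM1 gene model ends at the same base as that of IFITM2 and lies inside it, and IFITM3 runs the other way.

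Library checks came first. LEF1, whose value would take in reads of the dnLEF1 construct, was at 18.3 to 23.98 TPM in SW620 dnLEF1 against 0.30 to 0.80 TPM in SW620 Mock, and at 47.2 to 99.4 TPM in SW480 dnLEF1 against 5.09 to 14.8 TPM in SW480 Mock. AXIN2, a target gene of Wnt signalling, had 19.2 to 34.0 TPM in SW620 dnLEF1 and 24.3 to 29.7 TPM in SW620 Mock, which overlap, and 25.7 to 32.5 TPM in SW480 dnLEF1 and 48.2 to 62.0 TPM in SW480 Mock, which do not. The LRP6 transcript had 17.5 to 21.1 TPM in the libraries labelled LRP6KO, against 10.9 to 17.8 TPM in Cas9 libraries, and so was not lower. The cells were sorted for low LRP6 protein, which these data do not measure, so every LRP6KO value rests on the label. Genes above 0 numbered 24665 to 34709 per library, with SW480 Mock replicate 2 and LRP6KO replicate 1 (34114) standing above the rest. The epithelial markers EPCAM (248 to 642 TPM), KRT8, KRT18, KRT19 and VIL1 were high in every library, while KRT20 did not exceed 1.5 TPM, CDH1 lay between 2.79 and 27.4 TPM and CDX2 between 0.17 and 46.2 TPM. Of the human leukocyte markers, PTPRC did not exceed 3.42 TPM, while LYZ had 5.47 to 43.98 TPM and CD68 up to 10.8 TPM. The 8 leukocyte markers together summed to 9.24 to 52.2 TPM.

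The interferon ligands themselves were close to absent. The 8 ligand genes listed (IFNA1, IFNB1, IFNE, IFNG, IFNK, IFNL1, IFNL2 and IFNL3) had at most 0.80 TPM, reached by IFNL1, and none passed the filter on low values. IFNG and IFNK were listed at 0 in all 18 libraries. The receptors and signalling genes were all measured, with up to 47.6 TPM for IFNAR1 and up to 85.8 TPM for IFNGR2, a chain of the interferon gamma receptor. Some were low, with 0.19 to 1.49 TPM for the kinase JAK2 and 0 to 2.56 TPM for the transcription factor IRF8.

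IFITM2 and IFITM3 had the highest levels of the 9 members in every group. IFITM2 averaged 1213 ± 115 TPM in SW620 dnLEF1, 1025 ± 61.3 in LRP6KO, 1049.7 ± 56.2 in Cas9, 906 ± 121 in SW620 Mock, 1416 ± 104 in SW480 dnLEF1 and 2599.8 ± 448 in SW480 Mock (SD, n = 3 each). Each SW480 group lay apart from all others for IFITM2, and neighbours in the order of the SW620 groups overlapped. IFITM3 averaged 584 ± 37.9, 687 ± 109 and 704 ± 71.0 TPM in SW620 dnLEF1, LRP6KO and Cas9 and 571 ± 92.6 TPM in SW620 Mock, with 972 ± 55.7 TPM in SW480 dnLEF1 and 2309 ± 485 TPM in SW480 Mock. IFITM3 had the same order between the lines, again with overlap between neighbouring SW620 groups. IFITM1 had 0.30 to 1.99 TPM over all 12 SW620 libraries and 467 to 1364 TPM over the 6 SW480 libraries.

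ISG15, a ubiquitin-like protein that is attached to other proteins, lies at chr1:1001138-1014540 (plus strand, ENSG00000187608.8). It had 201 to 358 TPM in SW620 and 237 to 840 TPM in SW480 libraries. IFI6, a small membrane protein that opposes cell death and flavivirus replication (chr1:27666061-27672218, minus, ENSG00000126709.14), had 61.9 to 121 TPM in SW620 and 64.5 to 179 TPM in SW480. For both genes every pair of neighbouring groups overlapped in the order of the means.

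IFI27 (chr14:94104836-94116698, plus, ENSG00000165949.12), a small protein of the same family as IFI6, separated the lines. It had 0.16 to 10.1 TPM in SW620 libraries and 64.9 to 202 TPM in SW480 libraries. IRF9 (chr14:24161053-24166565, plus, ENSG00000213928.8), the DNA-binding subunit of ISGF3, had 11.8 to 34.7 TPM in SW620 and 35.6 to 72.5 TPM in SW480. The IFIT proteins bind viral RNA, and their genes were low in these tumours: IFIT1 (chr10:89392546-89406486, plus, ENSG00000185745.9) had 0.24 to 8.11 TPM and IFIT3 (chr10:89327894-89340971, plus, ENSG00000119917.13) 2.22 to 5.46 TPM.

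**Figure D3:**
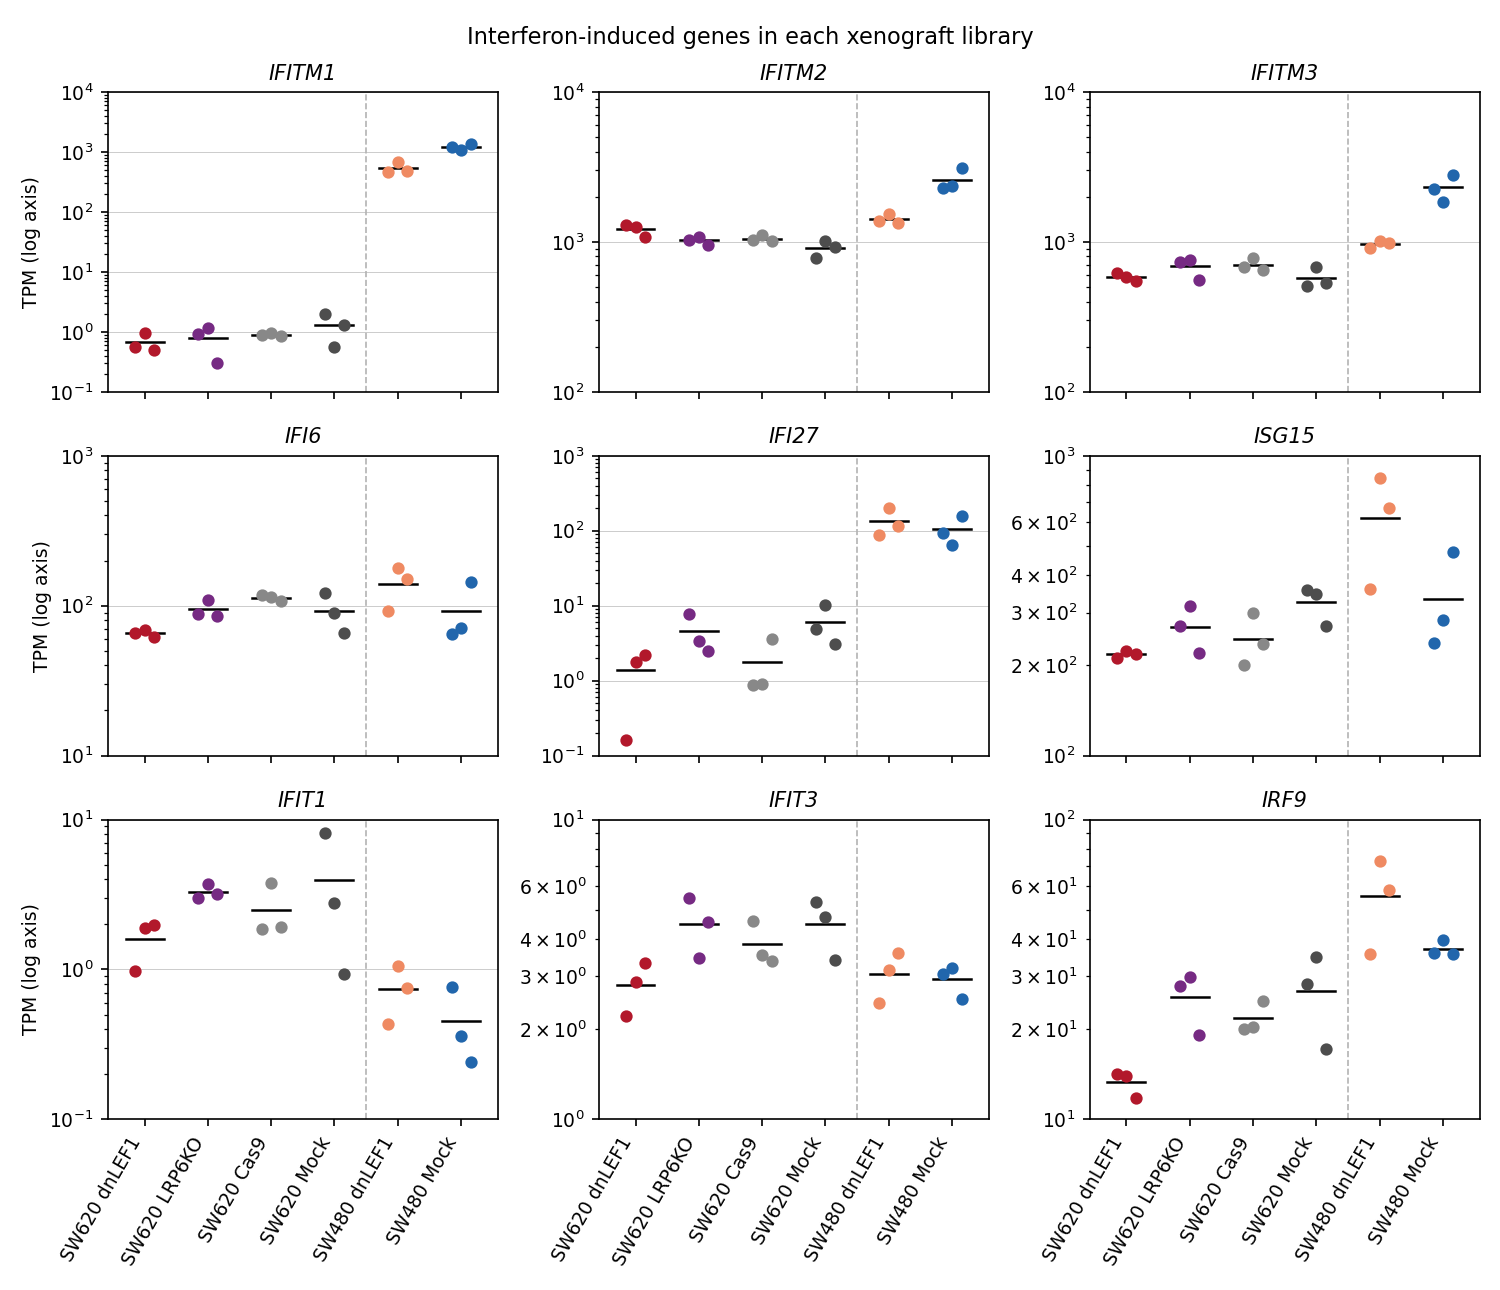
TPM of each member (log axis, with its own range in each panel) in the 3 libraries of each group, SW620 groups left of the dashed line and SW480 groups right of it; points are libraries and bars are group means. IFITM1 and IFI27 differ most between the lines, with at most 1.99 and 10.1 TPM in SW620, and the 3 IFITM genes are lower in SW480 dnLEF1 than in SW480 Mock with no overlap.

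In SW480 tumours the 3 IFITM genes were lower with dnLEF1, and the other members were not. IFITM3 had 911, 1021 and 982 TPM in SW480 dnLEF1, against 2269.9, 1845 and 2813 TPM in SW480 Mock. Every dnLEF1 library was below every Mock library, and the mean was 42.1% of that in Mock. On the log2(TPM + 1) scale used for all changes, IFITM3 fell by 1.23 with a standard error of 0.16 (limma adjusted p 6.12e-04).

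IFITM2 had 1371, 1534 and 1342 TPM in SW480 dnLEF1, against 2306, 2378 and 3115 TPM in SW480 Mock. The groups did not overlap, with a log2 change of -0.87 (SE 0.13, limma adjusted p 0.00196). IFITM1 had 467, 668 and 488 TPM in SW480 dnLEF1, against 1232, 1075 and 1364 TPM in SW480 Mock. It too was lower in each dnLEF1 library than in any Mock library, with a log2 change of -1.19 (SE 0.24, limma adjusted p 0.0160).

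The sum of the 3 genes, which depends less on how reads were divided among them, was 2749.6, 3224 and 2812 TPM in SW480 dnLEF1, against 5807, 5298 and 7293 TPM in SW480 Mock. The mean of the sum in dnLEF1 was 47.8% of that in Mock.

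Thus 3 of the 9 members fell and 0 rose by limma, while 0.875% of all genes tested fell and 1.35% rose. An unadjusted p under 0.05 was found for 5 of the 9 members and for 3438 of the 22981 genes tested. With libraries scaled by median ratios the genes called over the whole table were 190 higher and 225 lower, in place of 311 and 201, and all 3 IFITM calls stood. When only the 2 SW480 groups entered the fit, all 3 calls were lost, at adjusted p of 0.0925 for IFITM3, 0.235 for IFITM2 and 0.108 for IFITM1, with the same log2 changes. The IFITM1 call was also lost without SW480 dnLEF1 replicate 3 (adjusted p 0.0663), without SW480 Mock replicate 1 (0.0549), without SW480 Mock replicate 3 (0.0527), with a pseudocount of 0.1 (0.199) and with array weights (0.0710), over a range of 0.0130 to 0.199 for the 12 alternatives. The summed epithelial markers ran from 13319 to 18121 TPM in SW480 dnLEF1 and from 17337 to 21248 TPM in SW480 Mock, and their part in the IFITM result was not tested. In bulk tissue, fewer cells with a transcript and less of it per cell cannot be told apart.

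The other 6 members had log2 changes of 0.04 to 0.88 in SW480 and none was called. ISG15 had 358, 840 and 667 TPM in SW480 dnLEF1, against 237, 283 and 479 TPM in SW480 Mock. The lowest dnLEF1 library lay within the Mock range, and the log2 change was 0.88 (SE 0.28, limma adjusted p 0.130). ISG15 depended on single libraries, and it passed the threshold without SW480 dnLEF1 replicate 1 (1.23, adjusted p 0.0120) and without SW480 Mock replicate 3 (1.17, adjusted p 0.0435).

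IFI6 had 92.1, 179 and 149.7 TPM in SW480 dnLEF1, against 64.5, 70.5 and 143 TPM in SW480 Mock (log2 change 0.63, limma adjusted p 0.301). IRF9 had 35.6, 72.5 and 58.1 TPM in SW480 dnLEF1, against 36.0, 39.8 and 35.6 TPM in SW480 Mock (0.51, adjusted p 0.383). IFI27 had 87.8, 202 and 116 TPM in SW480 dnLEF1, against 92.8, 64.9 and 156 TPM in SW480 Mock (0.37, adjusted p 0.808). In all 4 genes replicate 1 was the lowest and replicate 2 the highest of the dnLEF1 libraries. IFIT1 and IFIT3 had log2 changes of 0.26 and 0.04, that of IFIT3 with the opposite sign (-0.04) under median-ratio scaling.

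In SW620 tumours no member was called with dnLEF1. IFITM2 had 1306, 1248 and 1084 TPM in SW620 dnLEF1, against 776, 1017 and 926 TPM in SW620 Mock. The groups did not overlap, with dnLEF1 higher, and the log2 change was 0.42 (SE 0.13, unadjusted p 0.00480, limma adjusted p 0.319). IFITM3 had 621, 586 and 545 TPM in SW620 dnLEF1, against 506, 677 and 529 TPM in SW620 Mock, and these overlapped (0.04, SE 0.16, adjusted p 0.972). The sum of the IFITM genes was 1927, 1836 and 1629.8 TPM in SW620 dnLEF1, against 1284, 1694 and 1457 TPM in SW620 Mock.

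IRF9 had 14.2, 14.01 and 11.8 TPM in SW620 dnLEF1, against 28.4, 34.7 and 17.1 TPM in SW620 Mock. It was lower in every dnLEF1 library than in any Mock library, at 49.9% of the Mock mean, with a log2 change of -0.90 (SE 0.26, unadjusted p 0.00315, limma adjusted p 0.275). With array weights, which give less weight to more variable libraries, IRF9 passed the threshold (adjusted p 0.0413), the range over its 12 alternatives being 0.0413 to 0.704.

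ISG15 had 211, 224 and 218 TPM in SW620 dnLEF1, against 358, 346 and 270.4 TPM in SW620 Mock (log2 change -0.56, SE 0.28, limma adjusted p 0.650). IFI27 had 0.16, 1.8 and 2.22 TPM in SW620 dnLEF1, against 4.91, 10.1 and 3.06 TPM in SW620 Mock (-1.56, SE 0.51, adjusted p 0.371). IFIT3 had 2.22, 2.88 and 3.32 TPM in SW620 dnLEF1, against 5.29, 4.75 and 3.40 TPM in SW620 Mock (-0.52, SE 0.22, adjusted p 0.542). Each of these was without overlap and lower in dnLEF1, and none passed the threshold. How many of all genes tested lacked overlap was not counted, here or in the other comparisons, so a lack of overlap is a description only. IFI6 (-0.45), IFIT1 (-0.66) and IFITM1 (-0.42, with at most 1.99 TPM in any library) overlapped between the groups.

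So 0 of the 9 members were called by limma, beside 0.165% of all genes tested in either direction, and 4 of the 9 members had an unadjusted p under 0.05, as did 1862 of the 22981 genes tested. The median change of the members was -0.52, against -0.12 over all genes tested. With median-ratio scaling the median of all genes was -0.0010, and the calls over the whole table were 21 higher and 17 lower, in place of 13 and 25. Relative to the median of all genes, IRF9 stood at -0.78 and IFITM2 at 0.54. Mitochondrial coding genes made up 4.87% to 6.06% of the TPM in SW620 dnLEF1 and 3.75% to 4.03% in SW620 Mock, and the epithelial markers summed to 8740.1 to 10785 TPM in SW620 dnLEF1 and 15153 to 17069.7 TPM in SW620 Mock. Without overlap between the same groups, the 7 fibroblast markers summed to 6.25 to 9.03 TPM in SW620 dnLEF1 and 13.0 to 16.9 TPM in SW620 Mock, and the 5 smooth muscle markers to 10.8 to 14.2 TPM in SW620 dnLEF1 and 24.9 to 37.6 TPM in SW620 Mock. The 5 endothelial markers summed to 3.72 to 4.34 TPM in SW620 dnLEF1 and 2.87 to 3.66 TPM in SW620 Mock. The part of these values in the differences was not tested.

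The difference between the lines in the dnLEF1 change was tested in the same fit, and IFITM2 and IFITM3 differed. The change in SW620 less that in SW480 was 1.29 for IFITM2 (SE 0.18, limma adjusted p 0.00379) and 1.27 for IFITM3 (SE 0.22, adjusted p 0.0149). Thus 2 of the 9 members were called higher, beside 0.178% of all genes, and 0 lower, beside 0.54% of all genes. The IFITM1 difference was 0.77 (SE 0.34, adjusted p 0.362), a value that rests on SW620 levels of at most 1.99 TPM, where the log2(TPM + 1) scale understates changes.

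The other 6 members had negative differences, from -0.56 for IFIT3 to -1.93 for IFI27, and none was called. ISG15 stood at -1.44 (SE 0.40, limma adjusted p 0.109) and IRF9 at -1.41 (SE 0.37, adjusted p 0.0914). An unadjusted p under 0.05 was found for 7 of the 9 members and for 2916 of the 22981 genes tested. ISG15 and IRF9 passed the threshold without SW480 dnLEF1 replicate 1 (ISG15 adjusted p 0.00969, IRF9 0.0128). ISG15 also did so without SW480 Mock replicate 3 (0.0427) and with array weights (0.0275), and IRF9 without SW620 Mock replicate 3 (0.0488). The IFITM3 call was lost when only the 4 groups entered the fit (adjusted p 0.0533), while that of IFITM2 stood in all 18 alternatives (adjusted p 0.00246 to 0.0423). Median-ratio scaling gave 54 genes higher and 54 lower over the whole table, in place of 41 and 124, and a median of all genes of 0.02, in place of -0.17. Relative to the median of -0.17, IFITM2 stood at 1.46 and ISG15 at -1.28.

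**Figure D4:**
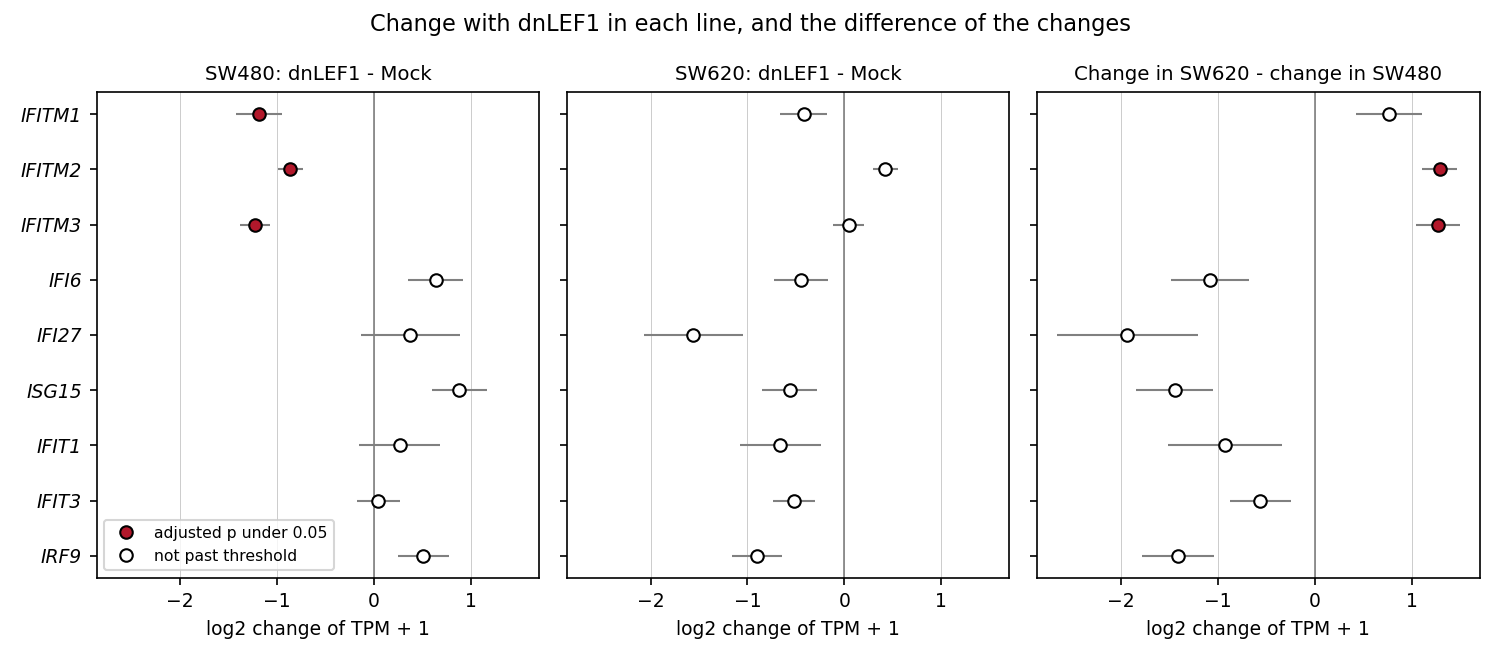
Log2 change of TPM + 1 with dnLEF1 for each member in SW480 (left) and SW620 (middle), and the difference of the changes (right); bars are standard errors from the fit and filled points have an adjusted p under 0.05. The 3 IFITM genes lie below 0 in SW480, and IFITM2 and IFITM3 are the filled points on the right, at 1.29 and 1.27.

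No member was called between the libraries labelled LRP6KO and Cas9. IFITM2 had 1035, 1080.4 and 959 TPM in the libraries labelled LRP6KO, against 1025, 1114 and 1009.9 TPM in Cas9, and these overlapped (log2 change -0.03, SE 0.13). IRF9 had 27.8, 29.9 and 19.1 TPM in LRP6KO, against 19.96, 20.4 and 24.8 TPM in Cas9 (0.21, SE 0.26). The widest change was that of IFI27, at 7.72, 3.43 and 2.51 TPM in LRP6KO, against 0.87, 0.90 and 3.63 TPM in Cas9 (1.01, SE 0.51, limma adjusted p 1). Among the 9 members 0 were called by limma, with 0 at an unadjusted p under 0.05, and 0% of all genes tested were called, with 766 genes at an unadjusted p under 0.05.

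The SW620 control groups, Cas9 and Mock, are the mocks of the transfection and of the lentivirus. Again 0 of the 9 members and 0% of all genes were called by limma, with 1 member (IFI27) and 1154 genes at an unadjusted p under 0.05. IFI27 had 0.87, 0.90 and 3.63 TPM in Cas9, against 4.91, 10.1 and 3.06 TPM in SW620 Mock (log2 change -1.34, SE 0.51, adjusted p 0.889). The dnLEF1 comparison in SW620, where IFI27 stood at -1.56, uses the same Mock libraries. The other members had log2 changes of -0.42 (ISG15) to 0.34 (IFI6).

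The lines themselves differed far more. SW620 Mock had 1.99, 0.57 and 1.31 TPM of IFITM1, against 1232, 1075 and 1364 TPM in SW480 Mock, so that the SW620 mean was 0.105% of the SW480 mean (log2 change -9.11, SE 0.24, limma adjusted p 9.70e-13). In the same SW620 Mock libraries IFITM2 had 776, 1017 and 926 TPM, so that at most 1.99 TPM was assigned to IFITM1 beside these levels of its near copies. IFITM2 and IFITM3 were at 34.9% and 24.7% of the SW480 Mock means, with log2 changes of -1.51 (SE 0.13, adjusted p 2.71e-07) and -2.01 (SE 0.16, adjusted p 1.12e-07).

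IFI27 had 4.91, 10.1 and 3.06 TPM in SW620 Mock, against 92.8, 64.9 and 156 TPM in SW480 Mock (log2 change -3.94, SE 0.51, limma adjusted p 2.65e-05). IFIT1 went the other way, with 8.11, 2.79 and 0.93 TPM in SW620 Mock, against 0.77, 0.36 and 0.24 TPM in SW480 Mock (1.49, SE 0.42, adjusted p 0.0146). IFIT1 passed the filter on low values only through SW620 libraries, where it is higher. Its call rested on SW620 Mock replicate 1, without which the change was 0.91 (adjusted p 0.0828), and it was lost with array weights (0.0612). ISG15 (0.02), IFI6 (0.04), IFIT3 (0.47) and IRF9 (-0.51) were not called. In all, 4 of the 9 members were lower and 1 higher, beside 12.9% and 10.9% of all genes tested.

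The other interferon pathway genes were taken from 7 lists of 74 genes found in the table, 58 of them tested. With dnLEF1 in SW480, 3 of the 58 rose and 2 fell, beside 1.35% and 0.875% of all genes tested. Of the 58, 44 lay above 0 with a median of 0.21, against 0.03 over all genes. TMEM173, the STING adaptor of cytosolic DNA sensing, averaged 54.8 ± 12.8 TPM in SW480 dnLEF1 and 23.7 ± 4.50 TPM in SW480 Mock (SD, n = 3 each), with a log2 change of 1.16 (limma adjusted p 0.0262). TRIM21, a cytosolic antibody receptor, rose by 0.88 (adjusted p 0.0353) and LGALS3BP, a secreted glycoprotein, by 1.27 (adjusted p 0.0479). The 2 that fell were ZBP1, a sensor of Z-form nucleic acids (-1.26, adjusted p 0.0219, with 1.17 ± 0.49 TPM in dnLEF1 and 4.11 ± 0.49 TPM in Mock), and the exonuclease ISG20.

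ZBP1 passed the filter on low values only through SW480 Mock, where it is higher. ISG20 averaged 58.2 ± 7.62 TPM in SW480 dnLEF1 and 104 ± 17.4 TPM in SW480 Mock (log2 change -0.83, limma adjusted p 0.0366). By list, the 7 sensors held 1 that rose and 1 that fell, and the 28 other effectors held 2 and 1. None of the 9 receptors and kinases, 7 transcription factors, 5 feedback inhibitors or 2 IFITM and IFI27 relatives tested was called.

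With dnLEF1 in SW620, 0 of the 58 pathway genes were called by limma, beside 0.165% of all genes tested, and 15 had an unadjusted p under 0.05, as did 1862 of the 22981 genes tested. Of the 58, 46 lay below 0, with a median of -0.25 against -0.12 over all genes. The smallest p values were those of ISG20, with 10.6 ± 2.67 TPM in SW620 dnLEF1 and 18.9 ± 1.73 TPM in SW620 Mock (log2 change -0.80, adjusted p 0.168), and of OAS1, a sensor of double-stranded RNA (-0.996, adjusted p 0.207). For the difference of the changes 0 of 58 were called by limma, with 21 at an unadjusted p under 0.05, beside 2916 of the 22981 genes tested. IL10RB, a receptor chain for type III interferon, came nearest (-1.06, adjusted p 0.0526), followed by IFI35 (-1.57, adjusted p 0.0657).

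LRP6KO against Cas9 and Cas9 against Mock each had 0 of 58 pathway genes called by limma, beside 0% of all genes tested. At an unadjusted p under 0.05 there were 3 and 2 of the 58, beside 766 and 1154 of the 22981 genes tested. For LRP6KO against Cas9, 43 of the 58 lay above 0 (median 0.13, against 0.07 over all genes). For Cas9 against Mock, 40 lay below 0 (median -0.11, against -0.03 over all genes). A lean to 1 side of 0 was therefore not particular to the dnLEF1 comparisons. BST2, which tethers budding virus to the cell surface, was among the 2 with the smallest p in both, averaging 11.7 ± 2.65 TPM in LRP6KO libraries, against 5.78 ± 2.73 TPM in Cas9 libraries (log2 change 0.96, adjusted p 1), and at that Cas9 level against 9.89 ± 1.498 TPM in SW620 Mock (-0.75, adjusted p 0.984). The others were UBE2L6, the conjugating enzyme for ISG15 (0.41 in LRP6KO against Cas9), and the phosphatase PTPN2 (-0.32 in Cas9 against Mock).

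Between the lines, 8 of the 58 pathway genes were higher and 17 lower in SW620 Mock than in SW480 Mock, beside 10.9% and 12.9% of all genes tested. Of those lower, ZBP1, DHX58 and HERC5 passed the filter on low values only through SW480 libraries, where they are higher. Of those higher, IFIT2 passed it only through SW620 libraries. BST2 was at 9.89 ± 1.498 TPM in SW620 Mock and 122 ± 62.1 TPM in SW480 Mock (log2 change -3.35, limma adjusted p 2.10e-06). ISG20 (-2.39), UBE2L6 (-1.73) and IFI35 (-2.11) were also lower, with adjusted p of 1.67e-05 or less. The effectors were not lower as a whole, since of the 28 tested 7 were called lower and 5 higher. Both family relatives tested were lower, with log2 changes of -1.88 for IFI27L1 and -1.48 for IFI27L2.

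Of the transcription factors 4 of 7 were lower, namely IRF1 (-1.22), IRF2 (-0.95), IRF3 (-0.81) and IRF7 (-0.76), and of the sensors ZBP1 (-1.72), TMEM173 (-1.44) and DHX58 (-1.55). The receptor chain IFNAR2 was lower (-0.97), while IFNGR1 (0.86) and JAK1 (0.40) were higher. USP18, an enzyme that removes ISG15 and damps interferon signalling, was higher at 9.78 ± 0.44 TPM in SW620 Mock and 2.10 ± 0.11 TPM in SW480 Mock (1.798, adjusted p 5.15e-05).

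**Figure D5:**
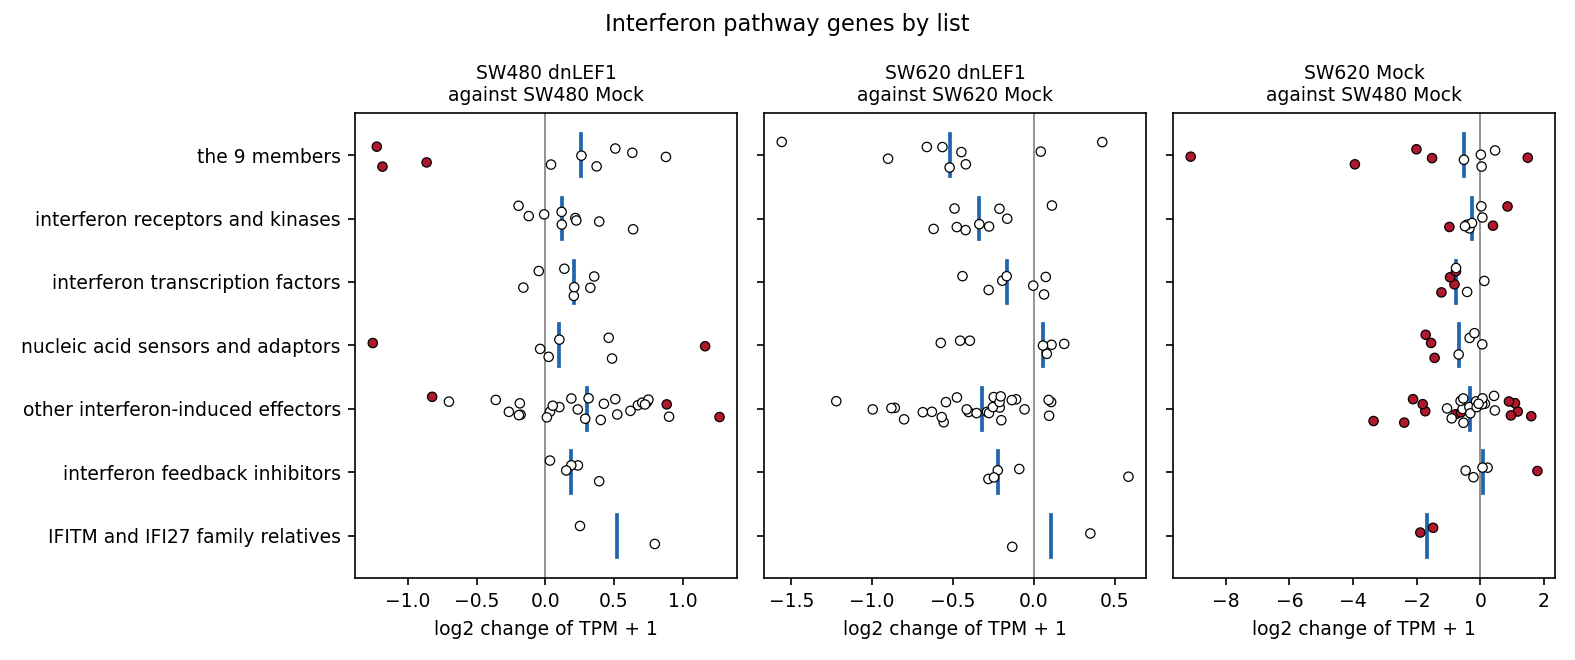
Log2 change of TPM + 1 of the 9 members and of the tested genes of 6 pathway lists in 3 comparisons, each panel with its own x range; points are genes, filled where the adjusted p is under 0.05, and blue bars are list medians. In SW480 the medians lie above 0 and in SW620 most lie below it, at 0.21 and -0.25 over the 58 pathway genes, and the right panel shows calls both ways.

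Patterns across the 18 libraries were compared after centring each gene within each line, so that the line difference does not count, and are given as descriptions. Differences between groups of the same line, such as SW480 dnLEF1 against Mock, stay in these values. All libraries share the TPM scale and each group is small. The IFITM values also depend on how shared reads were divided. IFITM2 and IFITM3 had a Pearson r of 0.86, and IFITM1 had 0.71 with IFITM3 and 0.55 with IFITM2. The IFITM genes did not follow ISG15, with r of -0.17 for IFITM1, -0.47 for IFITM2 and -0.37 for IFITM3. ISG15 had an r of 0.78 with IFI6, 0.71 with IRF9, 0.58 with IFI27, 0.44 with IFIT1 and 0.29 with IFIT3. IRF9 had an r of 0.68 with both IFI6 and IFI27, 0.64 with IFIT3 and 0.60 with IFIT1.

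Among tested genes with a mean of at least 5 TPM, those most like IFITM3 were S100A3 (0.91), CLDN11 (0.90) and CD8B (0.88). IFITM2 was followed most closely by IFITM3, ARHGAP11A (0.83) and PLA2G4D (0.81), and IFITM1 by MAP3K8 (0.83), SRGAP2 (0.81) and S100A3 (0.80). For IRF9 they were the interferon-induced genes MX1 (0.88) and OAS1 (0.85) and the kinase IKBKE (0.83). For ISG15 they were BLOC1S1 (0.91), CISD3 (0.90) and B3GNTL1 (0.90). IFI6 was most like B9D1 (0.86), TGS1 (0.84) and EMP3 (0.83), and IFI27 most like SLC35B4 (0.85), PRXL2A (0.81) and SQOR (0.80). For the low IFIT1 they were APPBP2 (0.83), DUS4L (0.80) and HIST1H2BG (0.80), and for IFIT3 RBM41 (0.84), RPL7L1 (0.84) and ACSS2 (0.79).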

How the data were processed

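Human xenografts in mouse caecum gave 18 Smart-seq2 libraries in 6 groups, made from frozen tissue per the labels' protocols. Smart-seq2 reads whole transcripts and does not mark the strand. The deposited values are TPM per gene, with 1 table for human and 1 for mouse genes. Per the submitters' processing notes, Trimmomatic 0.35, Bowtie 1.2 and RSEM 1.2.31 were used. How human and mouse reads were separated is not given in the sources used here. TPM sum to the same total in each library, so depth is unknown and no counting interval is given. The mouse table was not analysed here.

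Of 58381 human identifiers, 58261 were found in GENCODE 29, and 45 pseudoautosomal copies on Y, all at 0, were left out. The 22981 genes reaching 1 TPM in 3 or more libraries entered a limma-trend fit (limma 3.58.1, R 4.3.3) on the log2(TPM + 1) scale, in which all 18 libraries entered and each group had its own mean. The pseudocount of 1 understates changes of low genes. Benjamini-Hochberg adjustment covered all tested genes within each of 6 comparisons, and the threshold was 0.05. The fit was tested on simulated data.

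The members and lists were chosen with earlier results of these data known. Named were all 9 members, up to 4 called genes per pathway list with the smallest p (where none was called, the 2 genes of all lists with the smallest p), and for each member the 3 genes with the highest Pearson r. The ligands and receptors with the highest levels, and the low JAK2 and IRF8, were named after their values were seen. Shared sequence was counted in 50-base stretches of 1 transcript per gene against GENCODE 29 transcripts, and promoters came from RefSeq (GRCh38.p14). Alternatives were to set the pseudocount to 0.1, to keep low genes, to scale by median ratios, to fit the compared groups alone, to weight arrays, to block on the replicate number and to leave out each library in turn.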

Additional observations from a re-analysis of the deposited data

Results flagged for a closer look

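The dnLEF1 change of IFITM2 differed between the lines, by 1.29 on the log2(TPM + 1) scale (SE 0.18, limma adjusted p 0.00379), as tested by the difference of the changes in 1 fit. Its change was 0.42 in SW620 (limma adjusted p 0.319), where all 3 dnLEF1 libraries lay above all 3 Mock libraries. In SW480 it was -0.87 (limma adjusted p 0.00196), and all 3 dnLEF1 libraries lay below.

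The dnLEF1 change of IFITM3 also differed, by 1.27 (SE 0.22, adjusted p 0.0149). Its change was 0.04 in SW620, with overlapping groups, and -1.23 in SW480, with dnLEF1 lower in 3 of 3 libraries. The call of the IFITM3 difference was lost when only the 4 groups entered the fit (limma adjusted p 0.0533).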

How the results depend on the processing

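The calls of IFITM2 and IFITM3 in SW480 dnLEF1 against Mock stood in 11 of 12 alternatives each. The exception was the fit with only those 2 groups, where 0 members were called in place of 3 and IFIT1 was below the filter. Fits with only the compared groups also called 1 member in place of 2 for the difference of the dnLEF1 changes, and gave a median of the members of -1.01 in place of -0.51 between the lines. With array weights 1 member was called in SW620 dnLEF1 against Mock, and the median for the difference was -0.64 in place of -0.92.

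Leaving out 1 library at a time, the median of the members was 0.0433 to 0.40 for SW480 dnLEF1 against Mock, with the lowest value without dnLEF1 replicate 2. It was -0.67 to -0.23 for SW620 dnLEF1 against Mock and -0.32 to -0.0014 for Cas9 against Mock, in both cases nearest 0 without SW620 Mock replicate 1. For LRP6KO against Cas9 it was 0.0053 to 0.16. Between the lines it was -0.72 to -0.23, nearest 0 without SW620 Mock replicate 3. For the difference it was -1.30 without that library and -0.45 without SW620 Mock replicate 1. The members called were 2 to 4 for SW480 dnLEF1, 4 to 5 between the lines and 2 to 4 for the difference, where 4 came without SW480 dnLEF1 replicate 1, and 0 in the other comparisons.

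The sign turned in 20 single-gene values, none past the threshold. IFIT3 in SW480 dnLEF1 stood at -0.0377 with median-ratio scaling and at -0.0501 to 0.15 with a library left out. With a library left out, IFITM3 in SW620 dnLEF1 ranged over -0.0372 to 0.17. For LRP6KO against Cas9, IFITM1 ranged over -0.26 to 0.11, IFITM2 over -0.0736 to 0.0122 and IFITM3 over -0.12 to 0.10, and IFITM3 was 0.0125 with array weights. IFIT1 ranged over -0.79 to 0.33 for Cas9 against Mock, and between the lines IFI6 ranged over -0.17 to 0.40 and ISG15 over -0.19 to 0.31. The causes were not tested.

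Over all genes, SW480 dnLEF1 had 311 higher and 201 lower calls, against 16 and 13 with only its groups, 154 and 107 with array weights and 210 and 123 with a pseudocount of 0.1. Without dnLEF1 replicate 1 they were 878 and 336, without dnLEF1 replicate 2 they were 123 and 135, without dnLEF1 replicate 3 they were 144 and 130, and without Mock replicate 1 they were 177 and 125. SW620 dnLEF1 had 13 and 25, against 37 and 83 with only its groups, 87 and 307 with array weights, 8 and 13 with a pseudocount of 0.1 and 6 to 13 and 11 to 15 with a library left out. The difference had 41 and 124, against 11 and 32, 74 and 284 with array weights, 54 and 54 with median-ratio scaling, 154 and 647 without SW480 dnLEF1 replicate 1 and 20 to 68 and 46 to 218 without another library. LRP6KO against Cas9 had 0, against 4 and 6 with only its groups and 1 and 0 with array weights. Cas9 against Mock had 0, against 5 and 3 with only its groups, 43 and 58 with array weights, 0 and 1 with no filter and 1 and 0 without SW620 Mock replicate 1.

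With the replicate block, 3 members were called in SW480 dnLEF1, 5 between the lines and 2 for the difference, as without it, and all genes in SW480 dnLEF1 had 248 higher and 169 lower calls. Same-numbered libraries had correlations of deviations of -0.13 to 0.12 in 15 pairs, and libraries with other numbers -0.20 to 0.24. These values do not show a pairing by number, and they cannot exclude a shared animal or batch.

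TPM keep no depth, so the counting error of values of a few TPM is not known, and no other way of dividing shared IFITM reads was run.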

Other observations

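AC136475.1, a separate gene model, had 1.88 to 4.59 TPM in SW620 dnLEF1 and 3.34 to 3.43 TPM in SW620 Mock. It had 5.18 to 8.31 TPM in SW480 dnLEF1 and 2.68 to 10.49 TPM in SW480 Mock. The library protocol does not mark the strand, so its reads and those of IFITM3 cannot be told apart wherever the models overlap. The extent of any such overlap was not measured here.

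IFI27L2, a relative of IFI27, averaged 298 ± 77.5 TPM in SW480 dnLEF1 and 172 ± 51.4 TPM in SW480 Mock (SD, n = 3 each), with a log2 change of 0.80 (limma adjusted p 0.0591). In SW620 it averaged 54.05 ± 4.91 TPM in dnLEF1 and 59.2 ± 1.98 TPM in Mock. IFIT5 averaged 6.98 ± 1.06 TPM in SW620 Mock and 1.63 ± 0.39 TPM in SW480 Mock, and like IFIT1 was higher in SW620 (log2 change 1.60, limma adjusted p 2.39e-05). These genes were chosen after their values were seen.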
